A study of Homo sapiens with 3 samples.

Results

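Clusters that lie across 2 annotation classes of a transcript, such as an intron and the coding exon next to it, were examined in PAR-CLIP libraries of the RNA-binding protein MATR3. Members were the clusters whose deposited class label joins 2 classes with a hyphen. They numbered 227 of 115227 clusters over 3 libraries: 188 of 87230 in wild-type (WT) replicate 1 (rep1), 36 of 27155 in WT replicate 2 (rep2) and 3 of 842 in the MATR3 knockout (KO) library. The libraries came from HAP1, a near-haploid human line derived from a chronic myeloid leukaemia line. The WT libraries were from unmodified HAP1 cells, and the KO library was from a MATR3 knockout HAP1 line of the same vendor, named in the design as the negative control. The labels do not say whether the KO line is 1 clone, and they record anti-FLAG beads with no tag on MATR3. Cluster tables do not measure expression, so the cell line was not checked against marker genes.

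MATR3 (matrin 3) is a nuclear protein that binds RNA, often at pyrimidine-rich stretches of introns, and takes part in the regulation of splicing. PAR-CLIP crosslinks protein to RNA that carries 4-thiouridine, and the crosslinked base is then read as C instead of T, so T-to-C changes mark contacts. An intron usually begins with GT, the donor or 5′ splice site, and ends with a pyrimidine tract followed by AG, the acceptor or 3′ splice site. A read that crosses either site without a gap comes from RNA in which that intron had not been removed, or from a transcript that keeps it.

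The class label was read as running 5′ to 3′ along the transcript on both strands. GTAAG or GTGAG, letters of a donor site, was in 41.2% (plus strand) and 38.7% (minus strand) of exon-first clusters of WT rep1. No intron-first cluster of WT rep1 held either. Read this way, a label with the intron first places the cluster at the acceptor side of an intron, and a label with the exon first places it at the donor side. The order was not checked against an annotation, and some overlapping clusters of the other WT library, given below, go against it. The sequences below are those deposited for the clusters on which the results turn, with positions on hg38 and capitals marking each CAG or TAG. In all but SOAT1 a pyrimidine-rich stretch precedes a triplet; in SOAT1 the only triplet is near the 5′ end and the pyrimidine-rich run follows it. The first 4 are the intron-to-coding clusters of AUP1, SRCAP and NACA in WT rep1, and of SOAT1 in WT rep2. UBE2G2 and NAA38, shown for the 5′ UTR class because they are short enough, were chosen after their values were seen.

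AUP1 (chr2:74528484-74528522, minus strand): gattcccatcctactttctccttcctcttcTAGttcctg
SRCAP (chr16:30722529-30722568, plus strand): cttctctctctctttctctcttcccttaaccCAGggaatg
NACA (chr12:56719580-56719627, minus strand): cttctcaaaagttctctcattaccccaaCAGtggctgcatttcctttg
SOAT1 (chr1:179347596-179347629, plus strand): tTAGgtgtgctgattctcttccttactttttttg
UBE2G2 (chr21:44801396-44801423, minus strand): cttctattttttcttttcttggCAGcct
NAA38 (chr17:7883328-7883356, minus strand): ttctcttttcttccgtttCAGtatatttg

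The donor-side clusters are shown with every GT in capitals, because a GT is where an intron usually begins. ZNF655, SRCAP and NACA come from WT rep1, and ARIH2 from WT rep2. GTPBP4 of WT rep1 is the contrast, a donor-side cluster with no GT.

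ZNF655 (chr7:99561959-99562003, plus strand): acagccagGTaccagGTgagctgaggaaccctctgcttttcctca
SRCAP (chr16:30722699-30722780, plus strand): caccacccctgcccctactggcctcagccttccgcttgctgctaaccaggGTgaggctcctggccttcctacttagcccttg
NACA (chr12:56719716-56719747, minus strand): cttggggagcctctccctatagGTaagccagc
ARIH2 (chr3:48967244-48967277, plus strand): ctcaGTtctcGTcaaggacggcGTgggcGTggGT
GTPBP4 (chr10:992623-992660, plus strand): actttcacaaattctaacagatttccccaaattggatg

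Spanning clusters were rare in every library. They made up 0.216% of clusters in WT rep1 (95% Wilson interval 0.187 to 0.249%), 0.133% in WT rep2 (0.0958 to 0.183%) and 0.356% in KO (0.121 to 1.04%). Over both WT libraries this averaged 0.174% ± 0.0587 (SD, n = 2). The WT intervals did not overlap each other, and the KO interval, which rests on 3 clusters, covered both WT values. Genotypes were not tested against each other, since KO has 1 library. Reads carry no molecular identifiers in these tables, so all intervals cover counting error only. The tables do not give the abundance of each transcript, so a cluster's reads are not a measure of binding per molecule.

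Members held 4854 of 2668797 cluster reads in WT rep1 (0.182%), 4057 of 1558995 in WT rep2 (0.260%) and 752 of 224142 in KO (0.336%). The WT order for reads was the opposite of that for clusters. MALAT1, a long noncoding RNA of nuclear speckles, held 57.8% of the spanning reads of WT rep2 and 2.84% of those of WT rep1. Without MALAT1, an alternative chosen after seeing the data, the share of all reads was 0.177% in WT rep1 and 0.110% in WT rep2.

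Most members lay at the acceptor side. The intron came first in 123 of 188 members of WT rep1 (65.4%, 58.4 to 71.9%), in 24 of 36 of WT rep2 (66.7%, 50.3 to 79.8%) and in 2 of 3 of KO. The WT mean was 66.0% ± 0.878 (SD, n = 2), and the lower bound of each WT interval was above an even split. In WT rep1 the share was 64.9% on the plus strand and 65.9% on the minus strand. In WT rep2 it was 66.7% on each strand.

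The intron-to-coding class was the largest, with 88 clusters in WT rep1 (46.8%), 17 in WT rep2 (47.2%) and 2 in KO. Coding-to-intron clusters, the donor-side counterpart, numbered 43 (22.9%), 9 (25%) and 1. At 5′ UTR exons, 22 clusters of WT rep1 and 5 of WT rep2 ran from intron to exon, and 17 and 2 ran from exon to intron. Clusters with the long noncoding RNA label, which 2 protein-coding genes of WT rep1 also carried, numbered 9 and 2 from intron to exon, and 3 and 1 from exon to intron. At 3′ UTR exons WT rep1 had 4 clusters from intron to exon and 2 from exon to intron, and WT rep2 had none. In every class pair present in both WT libraries the intervals overlapped, so no difference in the mix of classes was detectable. The intervals of WT rep2 were wide, such as 13.8 to 41.1% for coding-to-intron, so the overlap does not show that the mix was the same.

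**Figure D1:**
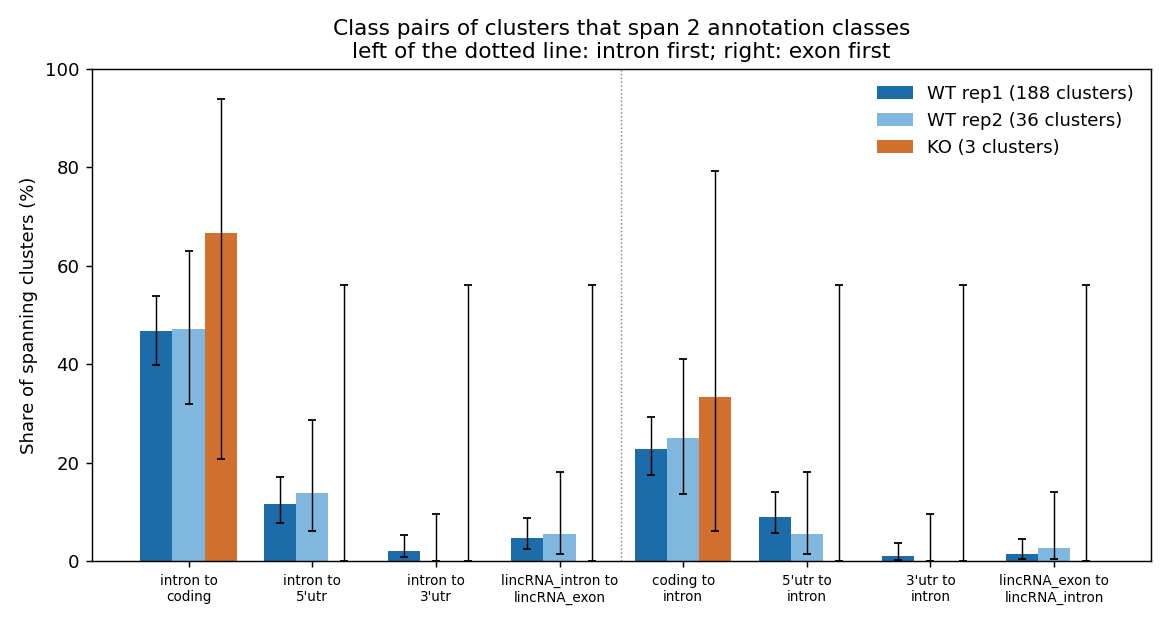
Share of spanning clusters (%) in each class pair, for the 2 WT libraries and the KO library; bars are shares and lines are 95% Wilson intervals. The intron-to-coding pair is the tallest bar in each library, at 46.8% and 47.2% in WT, and the KO bars rest on 3 clusters.

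Base composition changed along the acceptor-side members. Each cluster was cut into 5 equal stretches from its 5′ to its 3′ end. Pyrimidines made up 75.4, 77.8, 69.3, 59.1 and 54.0% of bases in the successive stretches of the acceptor-side members of WT rep1. In WT rep2 the values were 74.6, 74.7, 67.5, 62.7 and 52.0%. The standard error over clusters was 1.83 to 2.27 points in WT rep1 and 3.76 to 5.07 points in WT rep2, so the drop from the first to the last stretch was larger than the error in each library. Intron clusters stayed between 69.1 and 70.1% over the first 4 stretches in WT rep1 and ended at 62.2%, and in WT rep2 they ended at 59.2%. The start of the acceptor-side members lay above that of intron clusters in WT rep1, where the latter was 70.1%, and within 1 standard error of it in WT rep2, where it was 72.0%.

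The same members lost T towards the exon. In WT rep1 the T share was 46.5% in the first stretch and 27.5% in the last, and in WT rep2 it was 45.7% and 28.9%. Donor-side members showed no such slope: their pyrimidine share lay between 51.4 and 60.7% in WT rep1 and between 52.4 and 55.3% in WT rep2, with standard errors of up to 3.29 and 9.53 points. They were also the richest in G, at 22.9% of bases in WT rep1 and 22.3% in WT rep2, against 9.99% and 9.78% in intron clusters. Their T share, 30.7% and 30.5%, was close to that of coding clusters, 29.8% and 31.5%. RNase T1, which cuts after G, was used to trim the RNA, and its part in the composition was not tested.

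**Figure D2:**
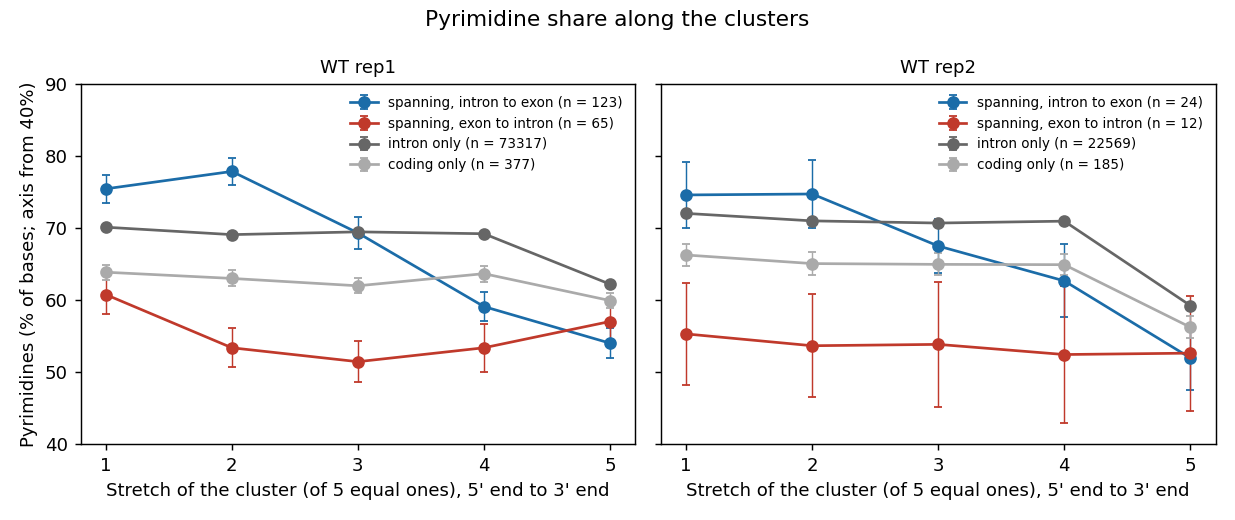
Pyrimidine share (% of bases, axis from 40%) in each of 5 equal stretches of the cluster, from the 5′ to the 3′ end, pooled over the clusters of each set in the 2 WT libraries; error bars are standard errors over clusters. Acceptor-side members (intron to exon) start at 75.4% and 74.6% and end at 54.0% and 52.0%, while the points of donor-side members (exon to intron) lie below those of intron clusters, with wide errors in WT rep2.

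Sequence motifs of the splice sites were searched on the cluster's own strand. The acceptor triplet CAG or TAG was present in 120 of 123 acceptor-side members of WT rep1 (97.6%, 93.1 to 99.2%), in all 24 of WT rep2 and in 1 of 2 of KO. Intron clusters held it in 43.9, 44.5 and 51.7% of cases in WT rep1, WT rep2 and KO, so the WT members stood well outside the interval of the intron clusters. A stricter pattern, a run of 6 pyrimidines followed within 6 bases by the triplet, was present in 66.7% of acceptor-side members of WT rep1 and 62.5% of WT rep2. In intron clusters it was present in 16.6% and 18.5%. A match describes the letters and does not place a splice site, and the class labels were themselves set by the annotated boundaries.

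The 3 acceptor-side members of WT rep1 without CAG or TAG were in IPO9, an importin, PPM1G, a protein phosphatase, and IMMT, a mitochondrial inner membrane protein. They held 38, 24 and 15 reads. Their sequences are shown because they are the exceptions.

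IPO9 (chr1:201855090-201855128, plus strand): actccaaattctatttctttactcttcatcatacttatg
PPM1G (chr2:27383588-27383620, minus strand): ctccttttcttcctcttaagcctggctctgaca
IMMT (chr2:86170807-86170848, minus strand): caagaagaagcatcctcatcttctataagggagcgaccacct

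The donor pentamers GTAAG or GTGAG were present in 26 of 65 donor-side members of WT rep1 (40%, 29 to 52.1%) and in 5 of 12 of WT rep2 (41.7%, 19.3 to 68.0%). No acceptor-side member held either pentamer, with 0 of 123 and 0 of 24, which the Wilson bounds limit to 3.03% and 13.8%. Intron clusters held one in 1.21% and 1.05% of cases and coding clusters in 1.86% and 0.541%. These shares lay below those bounds, so the acceptor-side members were not told apart from intron or coding clusters by the absence of the pentamers. With the preceding G added, GGTAAG or GGTGAG, the share among donor-side members was 30.8% and 25%, against 0.311% and 0.306% of intron clusters. A plain GT was present in 62 of 65 and 10 of 12 donor-side members, and in 43.4% and 37.9% of intron clusters.

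The donor-side members without any GT included those of GTPBP4, a GTPase of ribosome assembly, and MALAT1 in WT rep1, and those of SRP72, of the signal recognition particle, and MALAT1 in WT rep2. The acceptor triplet was also frequent at the donor side, in 78.5% and 50% of members, so it is not particular to the acceptor side.

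**Figure D3:**
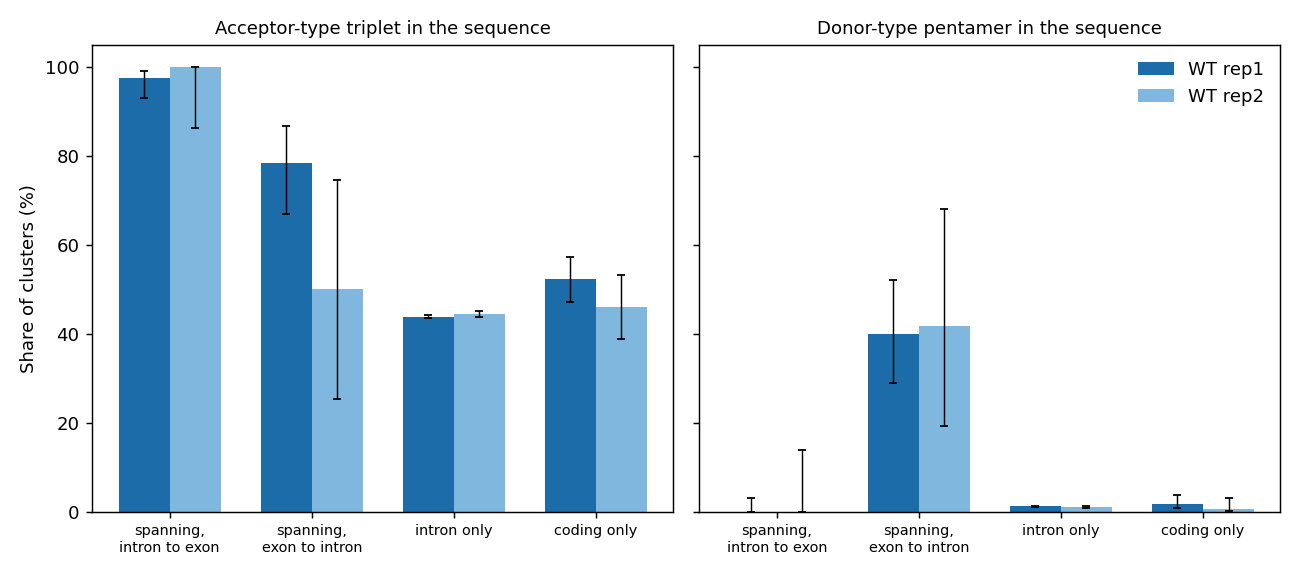
Share of clusters (%) that hold the acceptor triplet (left panel) and a donor pentamer (right panel), in acceptor-side members, donor-side members, intron clusters and coding clusters of the 2 WT libraries; lines are 95% Wilson intervals. The triplet is in 97.6% and 100% of acceptor-side members, and the pentamers are in 40% and 41.7% of donor-side members and in no acceptor-side member.

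Where a member held exactly 1 motif of its own kind, the motif was used to divide it into an intron side and an exon side. This was possible for 80 of 123 acceptor-side members of WT rep1 and 16 of 24 of WT rep2. Their median intron part was 22 nt and 23 nt, and their median exon part was 13 nt and 10.5 nt. With the cut placed at the triplet, these members thus reached further to the intron side than to the exon side. Members with a further triplet on either side were left out, and the triplet is not a known boundary. In SCAPER of WT rep2 the cut left 36 intron bases and 0 exon bases, although the label includes a coding exon. T made up 46.1% of the intron side and 31.5% of the exon side in WT rep1, and 45.5% and 31.9% in WT rep2.

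The deposited mode of the conversion signal lay on the intron side in 53 of these 80 members of WT rep1 (66.3%, 55.4 to 75.7%) and in 13 of 16 of WT rep2 (81.3%, 57.0 to 93.4%). The intron side held 61.2% and 66.6% of their bases, and 69.7% and 74.0% of their T. Both shares lay inside the interval of the mode's share in each library, so the mode was not told apart from either the bases or the T on the intron side. The median mode was 6 nt before the end of the triplet in WT rep1 (-6.0) and 10 nt before it in WT rep2 (-10.0). Of 25 donor-side members of WT rep1 with 1 pentamer, 15 had the mode on the intron side (60.0%, 40.7 to 76.6%), where 55.9% of their bases and 55.6% of their T lay. In WT rep2 this was 1 of 5 (20%, 3.62 to 62.4%), where 52.1% of their bases and 65.2% of their T lay. There the T share was outside the interval and the base share inside it, with 5 clusters only.

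**Figure D4:**
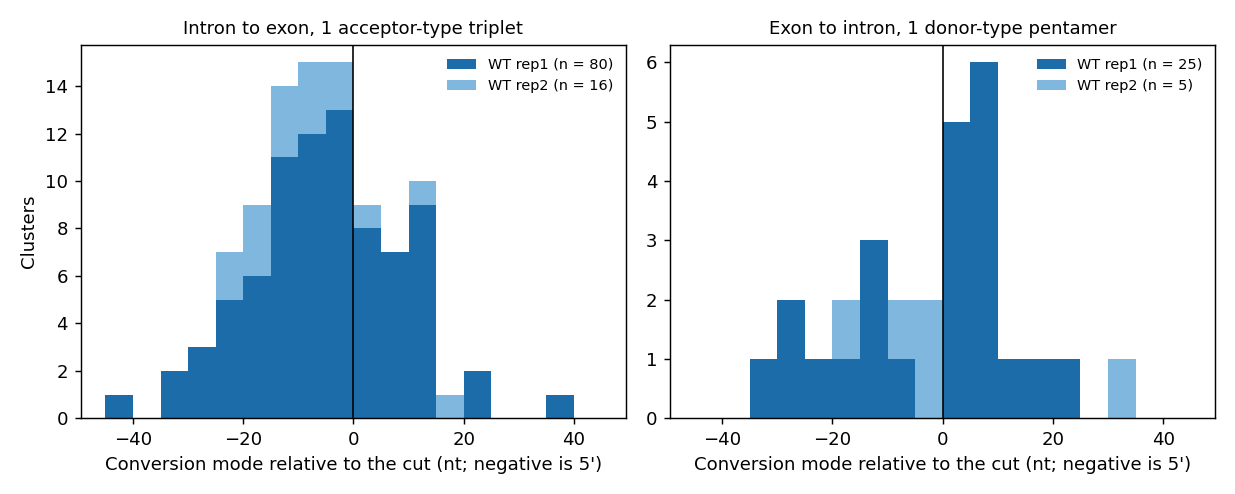
Number of members by the distance (nt) from the cut at the motif to the mode of the conversion signal, for acceptor-side members with 1 triplet (left, 80 and 16) and donor-side members with 1 pentamer (right, 25 and 5); bars stack the 2 WT libraries and negative values are 5′ of the cut. At the acceptor side most modes lie to the left, on the intron side, with 53 of 80 and 13 of 16.

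Members were of about the same depth as intron clusters. Median reads per cluster were 18 in WT rep1 (quartiles 11 and 30.25), 36 in WT rep2 (19.5 and 69.25) and 321 in KO. Intron clusters had medians of 20, 38 and 240. The median length was 34.5 nt in WT rep1 and 34 nt in WT rep2, against 33 nt and 32 nt for intron clusters. No cluster under 25 nt was a member, of 438, 2730 and 67 such clusters. Among clusters of 35 nt or more the share of members was 0.300% in WT rep1 and 0.182% in WT rep2, against 0.169% and 0.131% among those of 25 to 34 nt; the intervals of these 2 length classes overlapped in WT rep2 and not in WT rep1.

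Many members rested on few distinct read sequences. In WT rep1, 47 of 188 (25%) were built from a single read sequence, against 14.0% of intron clusters, and in WT rep2, 6 of 36 (16.7%) against 13.8%. For coding clusters the values were 19.4% and 9.73%, and for 5′ UTR clusters 20.2% and 22.7%. Only 2 converted positions, the lowest number in any cluster, were seen in 129 members of WT rep1 (68.6%) and 28 of WT rep2 (77.8%), against 58.7% and 74.7% of intron clusters. A median of 96.4% and 97.0% of a member's reads carried a T-to-C change, against 94.1% and 97.6% for intron clusters.

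**Figure D5:**
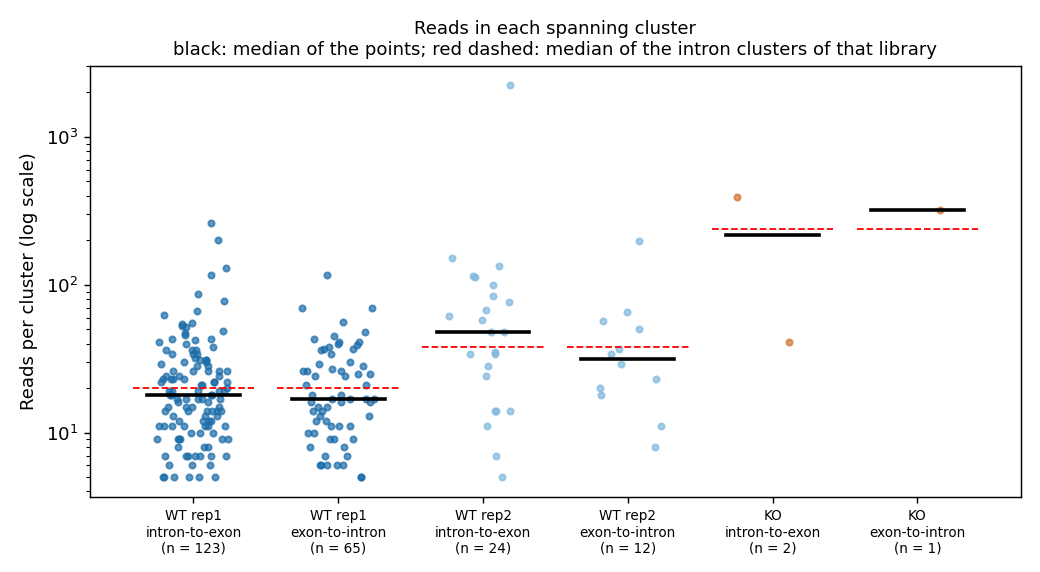
Reads per cluster (log scale) of each member, by library and by order of the classes; each point is 1 cluster, black lines are medians of the points and red dashed lines are medians of the intron clusters of that library. The highest point is the MALAT1 cluster of WT rep2 with 2233 reads, and the WT medians lie near those of the intron clusters.

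The share of T positions read as C, summed over reads, was 9.27% in the members of WT rep1 and 6.82% in those of WT rep2. Intron clusters gave 8.03% and 7.77%. The low value of WT rep2 rested on MALAT1, whose 1 cluster of 2233 reads supplied 29118 of 52893 T events. Without MALAT1 the members gave 9.43% and 9.10%, above the intron clusters in each library. Coding clusters gave 6.66% and 6.09%, and 5′ UTR clusters 7.06% and 7.71%. As medians over clusters, all members gave 10.2% and 9.56%, and intron clusters 8.58% and 8.44%. By that measure coding clusters, with 10.8% and 10.0%, and 5′ UTR clusters, with 10.6% and 9.72%, were also above intron clusters.

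Donor-side members had more of their T read as C than acceptor-side members, with 11.7% against 8.38% in WT rep1 and 11.2% against 6.27% in WT rep2. The counting intervals did not overlap, but T events of 1 cluster are not independent. As the median over clusters, which gives MALAT1 no added weight, the values were 11.8% against 8.87% and 12.6% against 8.34%. Donor-side members also held fewer T, with a median of 11 per cluster against 13 in WT rep1 and 9.5 against 13.5 in WT rep2. The median number of conversions per read was alike, 1.1 against 1.06 and 1.09 against 1.03.

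In AUP1, which encodes a protein of lipid droplets and of protein degradation at the endoplasmic reticulum, the acceptor-side cluster held 260 reads, the most of any member of WT rep1. It had 26 distinct read sequences and 12 converted positions, and 69.2% of its reads carried a change. In SOAT1, which esterifies cholesterol, the leading intron-to-coding cluster of WT rep2 held 151 reads from 2 distinct sequences, and 99.3% carried a change. SOAT1 also had a member in WT rep1, at another position, with 12 reads of 1 sequence.

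At 5′ UTR exons the leading acceptor-side clusters were in MORF4L2, a chromatin protein, with 200 reads in WT rep1, and in GPATCH2L with 134 reads in WT rep2. At the donor side of coding exons the leading cluster of WT rep2 was in ARIH2, a ubiquitin ligase, with 65 reads. The ARIH2 cluster printed above was weakly converted: 6.15% of its reads carried a change, and 4 of its 520 T events were converted. Chosen after their values were seen, PSMD13, a proteasome subunit, had 5.71% of 35 reads changed in WT rep2, and RPS15A, a ribosomal protein, 33.6% of 116 reads in WT rep1. Fewer than 50% of reads were changed in 8 members of WT rep1 (4.26%) and 4 of WT rep2 (11.1%). The share was 3.74% and 3.15% of intron clusters, and 4.16% and 3.95% of all clusters, so in WT rep1 the members were near it.

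MALAT1 carried 5 members, more than any other gene. All were labelled as exon and intron of a long noncoding RNA and lay on the plus strand of chromosome 11. They are shown with CAG and TAG in capitals for the acceptor side. The donor-side cluster has no GT, and so no capitals.

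MALAT1, WT rep2, 76 reads (chr11:65500895-65500926): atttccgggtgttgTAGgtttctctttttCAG
MALAT1, WT rep2, 2233 reads (chr11:65503689-65503736): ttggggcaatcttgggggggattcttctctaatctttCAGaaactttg
MALAT1, WT rep2, 34 reads, donor side (chr11:65503790-65503830): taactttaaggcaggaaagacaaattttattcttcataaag
MALAT1, WT rep1, 9 reads, donor side (chr11:65503790-65503829): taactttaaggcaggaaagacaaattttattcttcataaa
MALAT1, WT rep1, 129 reads (chr11:65504768-65504832): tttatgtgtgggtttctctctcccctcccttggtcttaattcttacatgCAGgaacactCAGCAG

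The 2233-read cluster of WT rep2 was built from 73 distinct read sequences, and 50.3% of its reads carried a change. No member of WT rep1 lay at that position. The donor-side cluster was called in each WT library with the same start and an end that differed by a single base, and 100% and 97.1% of its 9 and 34 reads carried a change. The acceptor-side cluster of 129 reads in WT rep1 overlapped a WT rep2 cluster of 135 reads that was labelled as exon alone, and 38.8% and 90.4% of reads were changed. Both clusters had the same start. The exon label thus fell on the 5′ part of the member, where the order of its own label places the intron. KO had no MALAT1 cluster of any class, while WT rep1 had 10 and WT rep2 had 8.

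Among the genes with 2 members over the WT libraries, SRCAP and NACA had theirs closest together, both in WT rep1. In SRCAP, a chromatin remodelling ATPase, the acceptor-side cluster of 116 reads and the donor-side cluster of 41 reads were 130 nt apart, with the intron-to-coding cluster upstream, so that the exon sides faced each other. In NACA, a subunit of the nascent polypeptide-associated complex, the donor-side cluster of 15 reads was followed after 88 nt by the acceptor-side cluster of 62 reads, so that the intron sides faced each other. Together with the gap, the NACA pair covered 168 nt and the SRCAP pair 252 nt. No genome annotation of exons was used here, so the boundaries, and whether a pair belongs to the same exon or intron, were not read.

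The other pairs were further apart. In ZNF655, a zinc finger protein gene, the donor-side cluster of 48 reads and the acceptor-side cluster of 34 reads were separated by 1828 nt. In GTPBP4 they held 11 reads each and were 8260 nt apart. WDR77, a partner of the arginine methyltransferase PRMT5, had acceptor-side clusters of 42 and 18 reads, 1806 nt apart. POLR1E, a subunit of RNA polymerase I, had acceptor-side clusters of 32 reads in WT rep1 and 11 reads in WT rep2, at different positions.

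The 3 KO members are shown with their capitals as above, GT for EDRF1 and CAG or TAG for the others.

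TSR1 (chr17:2334873-2334903, minus strand): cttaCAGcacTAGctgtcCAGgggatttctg
ARL6IP1 (chr16:18793369-18793393, minus strand): gttgggtttttttttattttaagtg
EDRF1 (chr10:125725836-125725863, plus strand): cagGTtaGTacttaaatgctaattctag

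TSR1, which acts in maturation of the small ribosomal subunit, held 390 reads, and EDRF1, an erythroid differentiation factor, held 321. ARL6IP1, a membrane protein of the endoplasmic reticulum, held 41 reads in a T-rich sequence (64.0% T) without CAG or TAG. Between 85.4% and 96.6% of their reads were changed. TSR1 and EDRF1 each had 2 clusters elsewhere in the gene in WT rep1, and EDRF1 had 1 and ARL6IP1 had 2 in WT rep2. None of the 3 overlapped a WT cluster. No WT member overlapped a KO cluster; of the intron clusters 0.0300% in WT rep1 and 0.0443% in WT rep2 did so, so no difference from that share was detectable with 188 and 36 members. Of 540 KO intron clusters, 22 overlapped one of WT rep1 (4.07%), so with 3 members no difference from that share was detectable.

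Members recurred seldom between the WT libraries. Of the 36 members of WT rep2, 2 overlapped a WT rep1 cluster of any class by 1 nt or more, strand matched (5.56%, 1.54 to 18.1%). Intron clusters of WT rep2 did so in 20.3% of cases (19.7 to 20.8%), which is outside the members' interval. Of the 188 members of WT rep1, 6 overlapped a WT rep2 cluster (3.19%, 1.47 to 6.79%), and the 6.19% of intron clusters lies inside that interval.

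The partner was itself a member in the MALAT1 donor-side pair only; in the other pairs it carried a single class. In SRCAP the partner in WT rep2 had the same start, held 96 reads and was labelled intron. It ended at position 30722562, at the CAG, 6 bases before the end of the member in WT rep1. The member had 44.8% of reads changed and the partner 99.0%. Both are printed to show where the shorter cluster stops.

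SRCAP, WT rep1: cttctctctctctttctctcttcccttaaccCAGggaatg
SRCAP, WT rep2: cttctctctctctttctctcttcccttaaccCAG

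The partner of the MORF4L2 member, labelled intron, held 83 reads in WT rep2. It covered the 3′ part of the member, where the order of the member's label places the exon. The genes of the remaining pairs are given because they are few, and were chosen after their values were seen. In ATP5G2 (now ATP5MC2), a subunit of ATP synthase, a member of 12 reads met an intron cluster of 79 reads. In C5orf51 (now RIMOC1) a donor-side member of 36 reads met a coding cluster of 74 reads, and in AGFG1 a WT rep2 member of 24 reads met an intron cluster of 66 reads.

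Members lay in 182 genes in WT rep1, 34 in WT rep2 and 3 in KO. MALAT1, POLR1E and SOAT1 were hosts in both WT libraries, which is 1.65% of the hosts of WT rep1 and 8.82% of those of WT rep2. Members lay in genes with fewer clusters than intron clusters did. Counted per cluster, the median number of clusters in the gene was 10 for members and 20 for intron clusters in WT rep1, and 3 and 8 in WT rep2. The member was its gene's sole cluster in 20 of 188 cases in WT rep1 (10.6%, 6.99 to 15.9%) and 10 of 36 in WT rep2 (27.8%, 15.8 to 44.0%). Of intron clusters, 2.12% and 7.15% were the sole cluster of their gene, below the members' interval in each library. It had the most reads of the gene's clusters in 17 of the 168 other cases in WT rep1 and 6 of 26 in WT rep2. Of the WT rep1 hosts, 129 of 182 had a cluster somewhere in the gene in WT rep2, and 28 of 34 the other way round. Neither of these last 2 shares was computed for other clusters or genes, so they do not set members or hosts apart. Counted per gene, the median number of clusters over all genes with a cluster was 4 in WT rep1 and 2 in WT rep2.

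Genes of splicing factors were looked up among the hosts. Over all genes with a cluster, 182 of 9222 were hosts in WT rep1 (1.97%) and 34 of 6060 in WT rep2 (0.561%). Of 26 hnRNP and PTB family genes, 24 had a cluster of any class in WT rep1 and 17 in WT rep2, and 2 and 1 had a member. Of 17 genes of SR proteins and related regulators, 15 and 11 had a cluster and none had a member. Of 25 genes of splice site recognition, 21 and 15 had a cluster, and 1 had a member, in WT rep2. Of 17 nucleic acid sensing genes, 12 and 6 had a cluster and none had a member. None of these lists had a member in KO, and none of their genes had one in both WT libraries. MATR3 itself had no spanning cluster in any library.

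The genes with a member in the lists of the hnRNP and PTB family and of splice site recognition are named here after their values were seen. Genes outside the lists were not looked up for a part in splicing. U2AF2, which binds the pyrimidine tract at acceptors, had a donor-side cluster of 57 reads in WT rep2, all from 1 read sequence. PTBP1, a repressor that binds pyrimidine tracts, had a donor-side cluster of 25 reads in WT rep1, with 29% of its T read as C. HNRNPH1, which binds G-rich RNA, had one of 23 reads in WT rep2. HNRNPC, which binds runs of U, had an acceptor-side cluster of 22 reads at a 5′ UTR exon in WT rep1. The coding-class clusters of these genes are shown.

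U2AF2 (chr19:55660220-55660252, plus strand): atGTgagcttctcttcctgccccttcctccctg
PTBP1 (chr19:806527-806558, plus strand): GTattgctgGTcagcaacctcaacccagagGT
HNRNPH1 (chr5:179616859-179616887, minus strand): atgggaggcatgggcttGTGTaaatatcg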

How the data were processed

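Clusters of PAR-CLIP reads were analysed in 2 WT and 1 KO library. Per the submitters' processing notes, cutadapt 1.8.3 and Bowtie 1.1.2 were used with the builds hg38 and GRCh38.p5. The cluster caller, its filters and the annotation release are not given in the sources used here. The authors deposited, per library, whole counts of reads, distinct reads, converted positions and T events per cluster, not normalised. The deposited T-to-C fraction of a cluster's reads was used as given. Every cluster had at least 5 reads and 2 converted positions. Only reads inside clusters are listed, so sequencing depth is unknown.

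Shares, 95% Wilson intervals, motif counts and strand-matched overlaps of 1 nt or more were computed in Python 3.11.15 with pandas 2.3.3 and statsmodels 0.14.6, and tested on simulated data. No filter was applied. Sequences on human chromosome 8 were counted and not printed. RefSeq symbols (GRCh38.p14) matched 187 of 188, 36 of 36 and 3 of 3 members.

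Members and lists were chosen with earlier results of these data known. Genes named are those of up to 10 overlapping WT pairs of members, the 5 KO members with most reads (3 exist), the 5 genes with most WT members and ties, and the member with most reads per WT library in class pairs with at least 20 clusters in WT rep1. List members in both WT libraries, and MATR3, were also to be named. Some items that the rule covers are not reported here. Alternatives were minimums of 10 reads or 3 converted positions, other denominators, lengths, overlaps and motifs, and leaving out each WT library. The labels do not say that the WT libraries came from separate cultures.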

Additional observations from a re-analysis of the deposited data

How the results depend on the processing

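Of 40 alternative values of 10 results, 26 stayed within 1 SD of the WT libraries, or within the Wilson interval where a single library was measured. The WT share of spanning clusters became 0.238% among the 842 clusters with most reads per library, where few members remain. It became 0% under 25 nt and 0.241% at 35 nt or more. The KO share became 0% under 25 nt and 0% at 35 nt or more. The Wilson upper bounds under 25 nt were 0.869% in WT rep1, 0.141% in WT rep2 and 5.42% in KO, and 2.09% at 35 nt or more in KO. Each bound lies above the main share of its library. The intron-to-coding share became 45.5% with at least 10 reads and 32.8% with at least 3 converted positions. The share of reads became 0.284% with at least 3 converted positions and 0.143% without MALAT1, an alternative chosen after seeing the data. The share of T converted was 9.88% as a median over clusters. The overlap of WT rep1 members fell to 0.532% when the partner also had to span 2 classes. Motif shares became 64.6% (acceptor) and 27.9% (donor) with the longer motif, and the donor share 45.3% with at least 10 reads. Leaving out a WT library gave 0.133 to 0.216% for the share of clusters and 65.4 to 66.7% for intron to exon, and with 2 libraries such values always lie within 1 SD of the mean, so they say nothing about stability. The cause was not tested, except that fewer clusters remain under each minimum and a longer motif matches less often. Leaving out a library could not be applied to the overlap, which needs both. No paired analysis was possible because KO has 1 library. The 36 and 3 members of WT rep2 and KO limit the precision.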

Other observations

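Letters of a donor site were also found outside the spanning class. GGTAAG or GGTGAG was present in 228 clusters labelled intron in WT rep1, 69 in WT rep2 and 3 in KO, more in number than the 20, 3 and 0 donor-side members that held it. These are 0.311, 0.306 and 0.556% of intron clusters.

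Clusters of 2 protein-coding genes carried the long noncoding label: RPL11, a ribosomal protein gene, with 14 reads of 1 sequence at a donor side, and PHYKPL, with 53 reads at an acceptor side, both in WT rep1.

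The deposited share of reads that end in G differed by strand. Among clusters whose sequence ends in G, its mean was 90.9, 99.3 and 99.4% on the plus strand in WT rep1, WT rep2 and KO, and 1.57, 1.70 and 5.16% on the minus strand. That column was therefore used in no result.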
